A study of Homo sapiens with 9 samples.

Results

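The proteasome subunit genes were the protein-coding genes with symbols PSMA, PSMB, PSMC or PSMD followed by a number, or PSME1 to PSME4, found through the Ensembl identifier of each count file. There were 43 of them among 60675 genes: 8 alpha-ring and 7 beta-ring genes of the 20S core, 4 genes of the immunoproteasome and thymoproteasome, 6 ATPases and 11 non-ATPase subunits of the 19S regulatory particle, 3 chaperones of 19S assembly and 4 activators. The proteasome is the barrel-shaped protease that degrades proteins tagged with ubiquitin. Its core is built of stacked alpha and beta rings, with the proteolytic sites on the beta subunits PSMB5, PSMB6 and PSMB7, and the 19S particle recognises, unfolds and feeds in the substrate. Under interferon, PSMB8, PSMB9 and PSMB10 replace the constitutive catalytic subunits to form the immunoproteasome, and PSME1 and PSME2 form the PA28 cap, both of which are known for their part in peptide supply to MHC class I molecules.

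RNA-seq was performed on LNCaP:C4-2 cells, an enzalutamide-sensitive, castration-resistant prostate cancer line derived from LNCaP, to assess the transcriptome after depletion of METTL3, the catalytic subunit of the m6A RNA methyltransferase complex. Each of 3 groups held 3 libraries: shScramble (a non-targeting shRNA), shMETTL3 guide 2 and shMETTL3 guide 1. All groups carried a stably integrated, puromycin-selected lentiviral pLKO.1-puro construct, described as doxycycline-inducible for the METTL3 shRNAs, and were kept in phenol red-free medium with charcoal-stripped serum, with 1 μg/ml doxycycline for 6 days according to the protocol and a vehicle according to the sample titles. Nothing in the labels says that the libraries of a group came from separate cultures, so the p-values measure only the spread between these libraries, which may be technical.

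METTL3 was measured at 29.8, 31.7 and 33.0 CPM (read counts relative to library size, scaled by TMM factors) in shScramble, at 16.6, 16.5 and 15.8 CPM with guide 2 and at 29.4, 30.1 and 29.6 CPM in the libraries labelled guide 1. Guide 2 thus lowered METTL3 by 0.95 on the log2 scale (log2 fold change -0.95, edgeR adjusted p = 2.97e-12), whereas the libraries labelled guide 1 gave -0.08 (edgeR adjusted p = 0.251) and are named by their label throughout. Total counts ranged from 21899501 to 30897639 per library, and the guide 2 libraries detected fewer genes (24884 to 26505) than the others (28459 to 29628). The luminal prostate markers FOLH1, FOXA1, HOXB13, KRT8 and KRT18 were abundant in all libraries, KLK3 was low (13.1 CPM in shScramble), and the leukocyte gene CD3E, the endothelial gene PECAM1 and the fibroblast gene DCN had 0 counts in all of them.

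Promoter sequence is shown for the interferon-inducible subunits, because they include the members with the largest fold change in each comparison that follows. Of the 43 genes, 38 matched 45 RefSeq promoter windows of 300 bases (GRCh38.p14). PSMA7, PSMB1, PSMB6, PSMB7 and PSMD4 were not matched. Each stretch runs 5′ to 3′ from 200 bases before to 20 bases after the annotated start, and capitals mark the core of the interferon-stimulated response element, the letters TTTC and TTTC spaced by 2 bases, searched on both strands. PSMB8 is the second of its windows (chr6:32844028-32844247, minus strand), PSMB9 lies at chr6:32853992-32854211 (plus strand), PSMB10 at chr16:67936831-67937050 (minus strand), PSME1 at chr14:24135994-24136213 (plus strand) and PSME2 at chr14:24146591-24146810 (minus strand).
PSMB8: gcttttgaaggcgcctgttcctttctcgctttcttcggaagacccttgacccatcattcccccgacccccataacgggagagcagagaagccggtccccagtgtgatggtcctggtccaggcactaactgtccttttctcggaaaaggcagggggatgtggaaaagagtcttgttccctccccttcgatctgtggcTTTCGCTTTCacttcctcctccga
PSMB9: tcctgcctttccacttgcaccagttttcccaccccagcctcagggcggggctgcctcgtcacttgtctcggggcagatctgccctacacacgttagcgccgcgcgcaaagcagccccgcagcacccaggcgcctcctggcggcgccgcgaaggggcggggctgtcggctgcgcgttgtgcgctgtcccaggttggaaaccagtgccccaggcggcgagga
PSMB10: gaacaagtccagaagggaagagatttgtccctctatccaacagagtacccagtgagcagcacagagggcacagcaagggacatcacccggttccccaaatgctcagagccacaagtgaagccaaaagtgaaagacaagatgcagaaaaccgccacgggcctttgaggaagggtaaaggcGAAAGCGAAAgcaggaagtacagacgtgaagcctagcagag
PSME1: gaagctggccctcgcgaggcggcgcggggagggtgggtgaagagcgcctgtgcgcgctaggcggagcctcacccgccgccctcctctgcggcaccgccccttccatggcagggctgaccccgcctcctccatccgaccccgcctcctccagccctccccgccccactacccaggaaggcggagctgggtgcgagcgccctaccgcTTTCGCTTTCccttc
PSME2: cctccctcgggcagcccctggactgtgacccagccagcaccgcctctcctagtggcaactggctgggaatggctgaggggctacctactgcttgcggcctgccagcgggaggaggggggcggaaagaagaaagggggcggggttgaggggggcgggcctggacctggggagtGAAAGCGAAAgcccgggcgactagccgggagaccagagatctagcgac

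The core was found in 6 of the 38 genes (15.8%), compared with 1195 of 27305 genes with a window (4.38%). The 6 were PSMB8, PSMB10, PSME1 and PSME2, together with the constitutive subunits PSMA4 and PSMB4. In PSMB8, PSMB10, PSME1 and PSME2 the match lay within 28 bases before to 15 bases after the start, whereas in PSMB4 it lay 68 to 59 bases and in PSMA4 240 to 231 bases before it. No match was present in the PSMB9 window. For PSMB8, the printed window was chosen because it held the core, and no other PSMB8 window held it. The starts of PSMB9 and of TAP1, a subunit of the peptide transporter, were 488 bases apart on opposite strands, and a further annotated start of TAP1 lay 1431 bases away. By gene, the gamma-activated site TTCNNNGAA was held by 8 of 38 (21.1%, all genes 9.38%), the antioxidant response element core TGACNNNGC by 13 (34.2%, all genes 16.1%), the ETS core CCGGAA by 20 (52.6%, all genes 20.1%) and the CCAAT box by 19 (50%, all genes 39.7%). These matches describe the letters of the windows, and a motif without a match says only that these letters were not in this window.

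Of the 43 genes, 41 passed the filter on low counts. The 2 that did not were PSMA8, an alpha subunit known from the testis, with 0, 3 and 0 counts in shScramble and 0 in all other libraries, and PSMB11, the thymus-specific catalytic subunit, with 0 to 2 counts per library. The other members were mostly abundant, and 34 of the 41 lay in the highest-expressed tertile of the 19278 genes tested. On the RPKM scale (TMM-scaled CPM per kb of all exon bases), the highest mean levels in shScramble were those of PSMA7 at 184 ± 14.9, PSMB3 at 109 ± 2.51 and PSMB4 at 102 ± 4.53 (SD, n = 3). The PSMB3 libraries (107 to 112 RPKM) lay just above those of PSMB4 (97.1 to 106 RPKM) on this length, and below them per kb of the MANE Select transcript. The lowest were PSMB9 at 0.244 ± 0.027, PSMA2 at 0.475 ± 0.0469 and PSMA6 at 1.07 ± 0.242 RPKM (SD, n = 3).

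Levels per length depended on the gene models. The median over the 41 genes in shScramble was 30.9 RPKM per kb of all exon bases and 62.0 RPKM per kb of the MANE Select transcript, a length chosen after seeing the data. On the MANE length the highest levels were those of PSMA7 at 334, PSMB4 at 240 and PSMB1 at 201 RPKM, with PSMB3 at 169 RPKM. For 7 genes (PSMA1, PSMA2, PSMA6, PSMB10, PSMC1, PSMD7 and PSMD9), more than 40% of the MANE bases were shared with another gene, up to 81.4% for PSMA6 and 83.2% for PSMC1. Reads from shared bases may not have been assigned to these genes, so that their levels can be understated. Family pseudogenes, 42 in number and no members, held 60 to 110 counts in all per library.

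**Figure D1:**
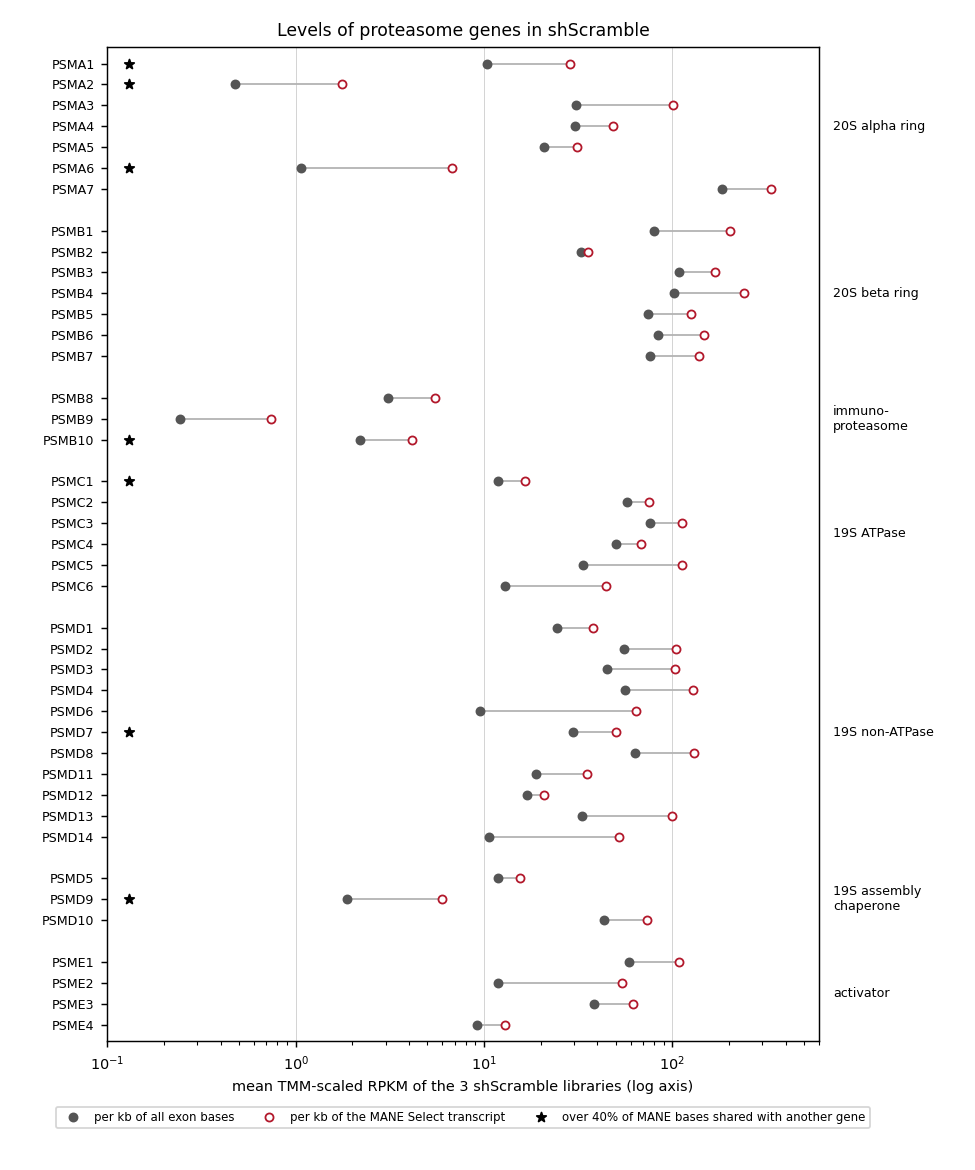
Mean TMM-scaled RPKM of each tested proteasome gene in the 3 shScramble libraries (x axis, log scale), by role, per kb of all exon bases (filled) and per kb of the MANE Select transcript (open), with stars for genes that share more than 40% of their MANE bases with another gene. On either length PSMA7 was highest and PSMB9 lowest, and the immunoproteasome genes lay below the beta-ring genes.

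With guide 2, the immunoproteasome genes PSMB9 and PSMB8 rose, and no proteasome gene fell. A gene was called where the edgeR adjusted p was under 0.05 and the change was 1.5-fold or more, which 2 of the 41 members (4.88%) and 29.3% of all tested genes met (in the highest-expressed tertile, 13.7%). By direction, 8.85% of all tested genes were called higher and 20.4% lower. By adjusted p alone, 25 of the 41 members were higher and 2 (PSMA1 and PSMD10) lower, where all tested genes gave 30% higher and 31.7% lower and the highest-expressed tertile 54.9% higher and 19.1% lower.

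The median log2 fold change of the members was 0.21, with 37 above 0 and 4 below, compared with -0.04 over all tested genes and 0.16 over the highest-expressed tertile. The members took 0.5002%, 0.516% and 0.528% of the deposited counts in shScramble and 0.559%, 0.548% and 0.553% with guide 2. When the libraries were scaled by their size alone, the median of all genes moved from -0.04 to -0.19 and that of the members to 0.06, with 24 members above 0, and PSMB8 no longer passed the fold limit (log2 fold change 0.55). The median of the members stood 0.25 above that of all genes, a distance that scaling cannot move and that was 0.18 with a minimum mean of 1 CPM and 0.33 under DESeq2. In RNA from whole cultures, fewer expressing cells and less RNA per cell cannot be told apart.

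In the libraries labelled guide 1, PSMB8, PSMD5, PSMB10 and PSME1 fell and no proteasome gene rose. These were 4 of 41 members (9.76%), where 37.7% of all tested genes were called (21.2% higher and 16.5% lower) and 20.3% of the highest-expressed tertile. By adjusted p alone, 8 members were higher and 19 lower, with 35.4% and 33.0% of all tested genes. The median log2 fold change of the members was -0.14, compared with -0.02 over all tested genes and -0.03 over the highest-expressed tertile. The value rested in part on replicate 2 of these libraries, without which it was -0.09. The members took 0.515%, 0.471% and 0.484% of the deposited counts.

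Guide 2 and the libraries labelled guide 1 were compared with the same shScramble libraries, so their values are given side by side and the difference was tested directly. In that test, 9 members were higher with guide 2 and none was lower, of 41, where 19.1% of all tested genes were called higher and 28.2% lower (47.3% in all), and 22.2% and 9.21% of the highest-expressed tertile. The 9 were PSMB9, PSMB8, PSMD5, PSME1, PSMB10, PSMD2, PSMB3, PSMA3 and PSME2. By adjusted p alone 27 members were higher and 5 lower, with 34.7% and 39.9% of all tested genes and 54.2% and 29.3% of that tertile, and the median log2 difference was 0.31, compared with -0.06 over all tested genes. Library size alone gave a member median of 0.17. Between 9 and 13 members were called when single libraries were left out, with 13 without replicate 1 of the libraries labelled guide 1.

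**Figure D2:**
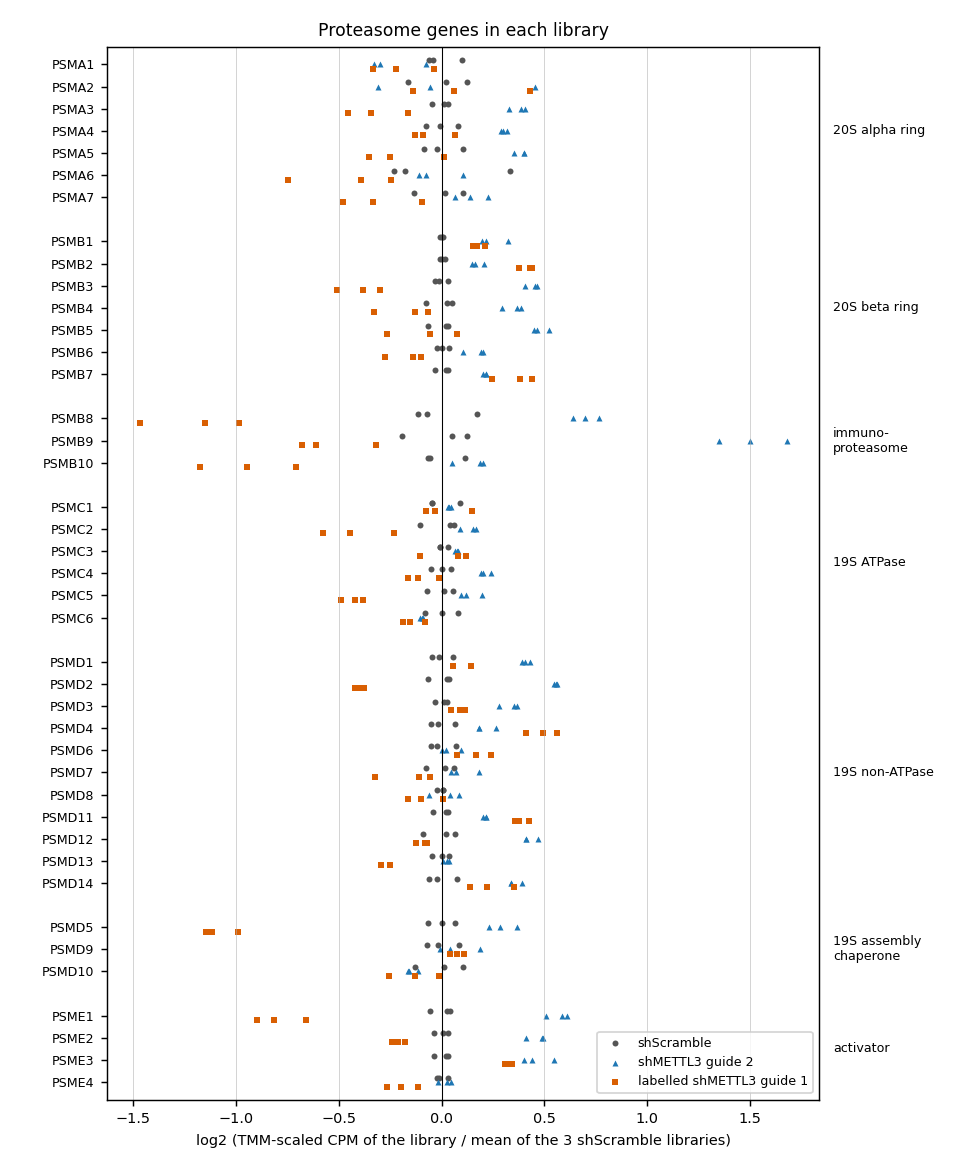
Level of each tested proteasome gene in each of the 9 libraries as log2 of its TMM-scaled CPM over the shScramble mean (x axis), by role. Circles are shScramble, triangles guide 2 and squares the libraries labelled guide 1; under this scaling most triangles lie to the right of 0 (37 of 41 members by fold change, 24 with library size alone), and PSMB8, PSMB9, PSMB10, PSMD5 and PSME1 show the widest gaps between groups.

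Among the alpha-ring genes, which form the gate of the core, none of the 7 tested was called with guide 2 or in the libraries labelled guide 1. Of all tested genes, 29.3% and 37.7% were called in these comparisons (13.7% and 20.3% of the highest-expressed tertile). PSMA3 was measured at 30, 31.2 and 31.6 RPKM in shScramble, at 40.9, 38.8 and 40.5 RPKM with guide 2 and at 27.6, 22.6 and 24.4 RPKM in the libraries labelled guide 1. The 3 groups did not overlap, in the order guide 2, shScramble, labelled guide 1. The difference of 0.69 ± 0.06 (log2, SE) between guide 2 and labelled guide 1 passed the test (edgeR adjusted p = 1.56e-11). Without overlap, guide 2 lay above shScramble for 32.5% and below it for 34.1% of all tested genes (58.5% and 20.9% of the highest-expressed tertile). For the libraries labelled guide 1 against shScramble, these shares were 36.5% and 34.5% (36.7% and 41.2%). Among the 41 members, 27 lay above and 2 below with guide 2, and 9 above and 15 below in the libraries labelled guide 1. PSMA5 gave a log2 fold change of 0.39 ± 0.08 with guide 2, the highest of the ring, and PSMA1 gave -0.23 ± 0.08, the lowest (SE, edgeR adjusted p = 0.00064 and 0.0144, both under the fold limit). PSMA7, the most abundant member, had 168, 186 and 197 RPKM in shScramble, 215, 202 and 192 RPKM with guide 2 and 172, 131 and 145 RPKM in the libraries labelled guide 1. Its groups overlapped in both comparisons with shScramble. The low alpha genes PSMA2 and PSMA6 were estimated with standard errors of 0.21 and 0.15 (log2), against a median of 0.05 over the 31 constitutive 20S and 19S genes.

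All 7 beta-ring genes were higher with guide 2 by adjusted p, of which 3 (PSMB3, PSMB4 and PSMB5) remained so with library size alone, where all 7 log2 fold changes were still above 0, and none reached the fold limit. All 7 lie in the highest-expressed tertile, of which 54.9% was higher by adjusted p. The catalytic subunit PSMB5, which carries the chymotrypsin-like site, was at 70.8, 75.9 and 75.4 RPKM in shScramble, at 106, 101 and 103 RPKM with guide 2 and at 78.3, 61.7 and 71.1 RPKM in the libraries labelled guide 1. Guide 2 lay above both other groups without overlap (log2 fold change against shScramble 0.48 ± 0.06, SE, edgeR adjusted p = 1.15e-06), and the other groups overlapped each other. PSMB6, the caspase-like subunit, was at 83.8 ± 1.85 RPKM in shScramble, 93.7 ± 3.42 with guide 2 and 74.4 ± 4.76 in the libraries labelled guide 1 (SD, n = 3). PSMB7, the trypsin-like subunit, was at 75.8 ± 1.77, 87.5 ± 0.681 and 96.9 ± 6.65 RPKM in the same order (SD, n = 3). Thus the libraries labelled guide 1 were the lowest group for PSMB6 and the highest for PSMB7.

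Among the structural beta subunits, PSMB3 and PSMB2 divided in the same way. PSMB1 did not, and its guide 2 and labelled guide 1 libraries overlapped. It had 79.5 RPKM in shScramble, 94.2 with guide 2 and 89.9 in the libraries labelled guide 1 (means, n = 3). For PSMB4, the libraries labelled guide 1 overlapped shScramble (90.4 ± 8.38 and 102 ± 4.53 RPKM, SD, n = 3). PSMB3 was at 107, 109 and 112 RPKM in shScramble, at 150, 145 and 151 RPKM with guide 2 and at 89.4, 76.9 and 83.9 RPKM in the libraries labelled guide 1, with no overlap between groups and a log2 difference of 0.83 ± 0.05 (SE, edgeR adjusted p = 8.75e-15) between guide 2 and labelled guide 1. PSMB2 was at 32.5, 33.1 and 32.7 RPKM, at 36.1, 36.5 and 37.6 RPKM and at 44.1, 42.4 and 44.1 RPKM in the same order of groups. Here the libraries labelled guide 1 were the highest, with a log2 fold change against shScramble of 0.41 ± 0.04 (SE, edgeR adjusted p = 1.59e-09, under the fold limit).

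The immunoproteasome genes were among the lowest of the core and held the largest fold change in each comparison. PSMB9, the inducible counterpart of PSMB6, had 24, 26 and 15 counts in shScramble, 49, 48 and 53 with guide 2 and 14, 13 and 18 in the libraries labelled guide 1, or 0.253, 0.266 and 0.214 RPKM, 0.691, 0.623 and 0.782 RPKM and 0.16, 0.152 and 0.196 RPKM. The groups did not overlap on the RPKM scale. The fold change was 2.82 with guide 2 (log2 1.495 ± 0.257, SE, edgeR adjusted p = 1.39e-05) and 0.692 in the libraries labelled guide 1 (log2 -0.53 ± 0.31, SE, edgeR adjusted p = 0.129), which did not pass the test. With 13 to 53 counts per library, PSMB9 had the largest standard errors of all tested members.

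PSMB8, the inducible counterpart of PSMB5, was at 3.47, 2.93 and 2.84 RPKM in shScramble, at 4.99, 5.25 and 4.79 RPKM with guide 2 and at 1.56, 1.11 and 1.38 RPKM in the libraries labelled guide 1. The groups were separate, with guide 2 highest and labelled guide 1 lowest. PSMB8 rose by 0.70 ± 0.12 with guide 2 (log2, SE, edgeR adjusted p = 1.88e-05) and fell by 1.19 ± 0.14 in the libraries labelled guide 1 (log2, SE, edgeR adjusted p = 2.56e-08). The rise did not pass a test against the fold limit itself (glmTreat adjusted p = 0.261).

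PSMB10, the inducible counterpart of PSMB7, was at 2.10, 2.37 and 2.10 RPKM in shScramble, at 2.27, 2.5 and 2.52 RPKM with guide 2 and at 1.35, 0.971 and 1.14 RPKM in the libraries labelled guide 1. Guide 2 overlapped shScramble (log2 fold change 0.15 ± 0.15, SE, edgeR adjusted p = 0.423), and the libraries labelled guide 1 lay below both, with a fall of 0.93 ± 0.17 (log2, SE, edgeR adjusted p = 1.61e-05). A gene model on the same strand, ENSG00000261884, shared 56.1% of the MANE bases of PSMB10 and had 65, 50 and 63 counts in shScramble, 31, 28 and 26 with guide 2 and 41, 47 and 24 in the libraries labelled guide 1. Its part in the PSMB10 values was not tested.

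**Figure D3:**
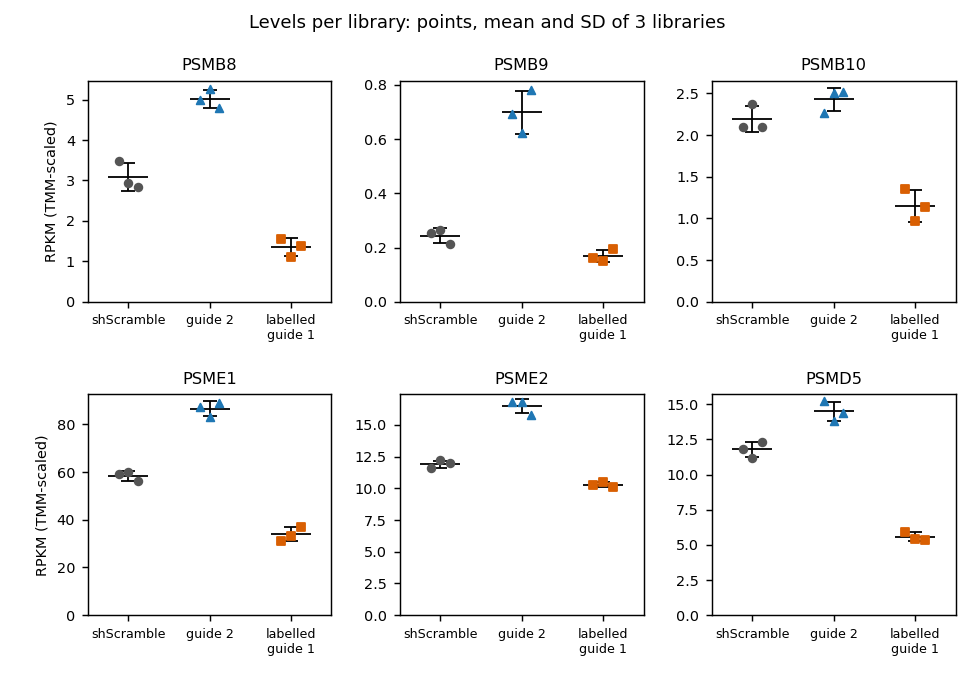
TMM-scaled RPKM (y axis, from 0) of PSMB8, PSMB9, PSMB10, PSME1, PSME2 and PSMD5 in each library, with the mean and SD of the 3 libraries of each group. Guide 2 is the highest group and the libraries labelled guide 1 the lowest in all 6 panels, and only for PSMB10 do the guide 2 and shScramble libraries overlap.

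The ratio of each inducible catalytic subunit to its constitutive counterpart, in counts per kb, does not depend on the scaling of the libraries. PSMB8 was 4.17 ± 0.63% of PSMB5 in shScramble, 4.84 ± 0.285% with guide 2 and 1.91 ± 0.097% in the libraries labelled guide 1 (SD, n = 3). PSMB9 was 0.292 ± 0.0373%, 0.748 ± 0.111% and 0.228 ± 0.0277% of PSMB6 in the same order (SD, n = 3). PSMB10 was 2.89 ± 0.171%, 2.77 ± 0.138% and 1.18 ± 0.117% of PSMB7 (SD, n = 3). These percentages rest on all exon bases. On MANE Select lengths PSMB9 was 0.501%, 1.29% and 0.392% of PSMB6 in the same order, with the same fold between groups.

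The ratios of the libraries labelled guide 1 lay below those of shScramble without overlap for PSMB8 and PSMB10, and those of guide 2 lay above shScramble without overlap only for PSMB9. The exact permutation test gave p = 0.1 for each of these, the smallest that 3 libraries against 3 allow (0.15 after adjustment over the 9 tests), so the design cannot pass 0.05. For PSMB8 with guide 2 and PSMB10 with guide 2 the groups overlapped (exact permutation p = 0.3 and 0.6).

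**Figure D4:**
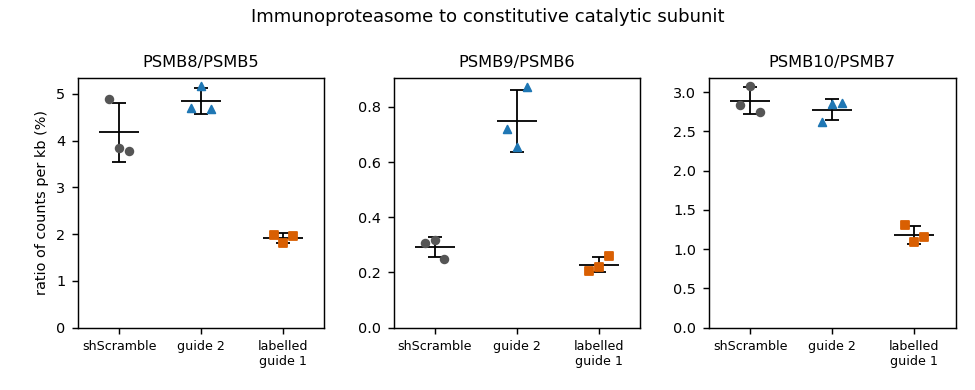
Ratio of counts per kb of PSMB8 to PSMB5, PSMB9 to PSMB6 and PSMB10 to PSMB7 in percent (y axis, from 0) in each library, with the mean and SD of the 3 libraries of each group. The libraries labelled guide 1 lie lowest for PSMB8 and PSMB10, at 1.91% and 1.18%, and guide 2 lies highest for PSMB9, at 0.748%.

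Endothelial, fibroblast and luminal markers stood as follows beside these changes. The 3 endothelial genes summed to 1.27 to 1.78 CPM in shScramble, 2.87 to 3.49 CPM with guide 2 and 0.632 to 1.2 CPM in the libraries labelled guide 1, with PECAM1 at 0, and the 4 fibroblast genes to 41.6 to 45.5, 33.3 to 36.7 and 18.7 to 24.6 CPM in the same order, nearly all of it COL1A1. The 8 luminal genes summed to 2480 to 2530, 2750 to 2890 and 1250 to 1290 CPM, and 5 of the 8 fell in the libraries labelled guide 1 while none rose. Of all tested genes, 16.5% were called lower and 21.2% higher there (10.1% and 10.2% of the highest-expressed tertile). With guide 2, HOXB13 rose and KLK3 fell (log2 fold change 0.78 and -0.82), and 4 of the 8 lay above 0 and 4 below. Of all tested genes, 8.85% were called higher and 20.4% lower with guide 2. The part of the luminal, endothelial and fibroblast genes in the proteasome values was not tested.

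The activators did not all change alike. PSME1, a subunit of the PA28 cap, was at 59.3, 60.1 and 56.1 RPKM in shScramble, at 87.5, 83.2 and 89.1 RPKM with guide 2 and at 31.3, 33.2 and 37.0 RPKM in the libraries labelled guide 1. The 3 groups were separate, with a fold change of 1.48 with guide 2 (log2 0.56 ± 0.05, SE, edgeR adjusted p = 3.91e-10), just under the limit of 1.5, and of 0.579 in the libraries labelled guide 1 (log2 -0.79 ± 0.05, SE, edgeR adjusted p = 3.2e-13). Under DESeq2, with no filter on low counts, and without replicate 2 of guide 2, the rise of PSME1 passed the limit (log2 fold change 0.59 in each). With library size alone the rise was 0.41, further under the limit.

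PSME2, its partner, was at 11.6, 12.2 and 12 RPKM, at 16.8, 16.8 and 15.8 RPKM and at 10.3, 10.5 and 10.1 RPKM in the same order. The order of the groups was that of PSME1, and the difference of 0.68 ± 0.05 between guide 2 and labelled guide 1 passed the test (log2, SE, edgeR adjusted p = 5.23e-12). PSME3, which forms a separate nuclear cap, was at 38.3 ± 0.937, 52.7 ± 2.89 and 48.0 ± 0.535 RPKM (SD, n = 3), higher than shScramble in both other groups without overlap and under the fold limit in both. PSME4, the PA200 cap, was at 9.19 ± 0.174, 9.32 ± 0.204 and 8.06 ± 0.416 RPKM (SD, n = 3). Its guide 2 libraries overlapped shScramble, and the libraries labelled guide 1 lay below both. Their log2 fold change against shScramble was -0.19 ± 0.05 (SE, edgeR adjusted p = 0.000926, under the fold limit).

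Of the 6 ATPases of the 19S base, which unfold the substrate, none was called in any comparison, and the range with guide 2 ran from -0.10 for PSMC6 to 0.21 for PSMC4 (log2 fold change). All 6 lie in the highest-expressed tertile, of which 13.7% was called with guide 2 and 20.3% in the libraries labelled guide 1 (29.3% and 37.7% of all tested genes). Between guide 2 and labelled guide 1, 31.4% of that tertile and 47.3% of all tested genes were called. In the libraries labelled guide 1, PSMC5 and PSMC2 gave -0.43 ± 0.05 and -0.41 ± 0.07 (log2 fold change, SE, edgeR adjusted p = 5.64e-09 and 4.99e-05), under the fold limit. PSMC1 gave 0.04 ± 0.06 with guide 2 and 0.02 ± 0.06 in the libraries labelled guide 1 (log2 fold change, SE), with 83.2% of its MANE bases shared with NRDE2 on the opposite strand.

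The 11 non-ATPase subunits all had log2 fold changes above 0 with guide 2, of which 7 had an adjusted p under 0.05 and none reached the fold limit. All 11 lie in the highest-expressed tertile, where 4479 of 6426 genes were above 0 and 54.9% were higher by adjusted p. With library size alone 7 of the 11 were above 0, 5 were higher by adjusted p and 2 (PSMD8 and PSMD13) were lower. PSMD2, a scaffold subunit of the base, was at 56.7, 57.0 and 53.1 RPKM in shScramble, at 81.8, 81.2 and 82.0 RPKM with guide 2 and at 41.4, 42.4 and 42.7 RPKM in the libraries labelled guide 1. It gave the highest value of these 11 genes with guide 2 (log2 fold change 0.55 ± 0.04, SE, edgeR adjusted p = 1.92e-11) and the lowest in the libraries labelled guide 1 (-0.40 ± 0.04), and the 3 groups were separate. PSMD4, a ubiquitin receptor, was at 54.0, 55.5 and 58.8 RPKM, at 63.9, 63.8 and 67.3 RPKM and at 83.1, 74.8 and 78.8 RPKM in the same order. It was highest in the libraries labelled guide 1 (log2 fold change 0.49 ± 0.05, SE, edgeR adjusted p = 4.44e-10, under the fold limit). PSMD8 was the lowest of the 11 with guide 2, at 0.02 ± 0.05 (log2 fold change, SE), with overlapping groups.

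Over the 31 constitutive 20S and 19S subunits tested, the log2 fold changes thus spread more widely than their errors. With guide 2 they ran from -0.23 (PSMA1) to 0.55 (PSMD2) with an SD over subunits of 0.18, and in the libraries labelled guide 1 from -0.43 (PSMC5) to 0.49 (PSMD4) with an SD of 0.26, against a median SE of 0.05 in both. By adjusted p, 19 were higher, 1 lower and 11 neither with guide 2, and 7 were higher, 13 lower and 11 neither in the libraries labelled guide 1. In the highest-expressed tertile, 54.9% were higher and 19.1% lower with guide 2, and 36.3% and 40.9% in the libraries labelled guide 1. The quartiles of log2 fold change in that tertile were -0.054 and 0.381 with guide 2. They were -0.319 and 0.275 in the libraries labelled guide 1. With library size alone, 18 of the 31 were above 0, 11 were higher and 4 lower with guide 2, and 7 higher and 16 lower in the libraries labelled guide 1. None of the 31 was called in either comparison with shScramble. In the highest-expressed tertile, 13.7% were called with guide 2 and 20.3% in the libraries labelled guide 1.

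**Figure D5:**
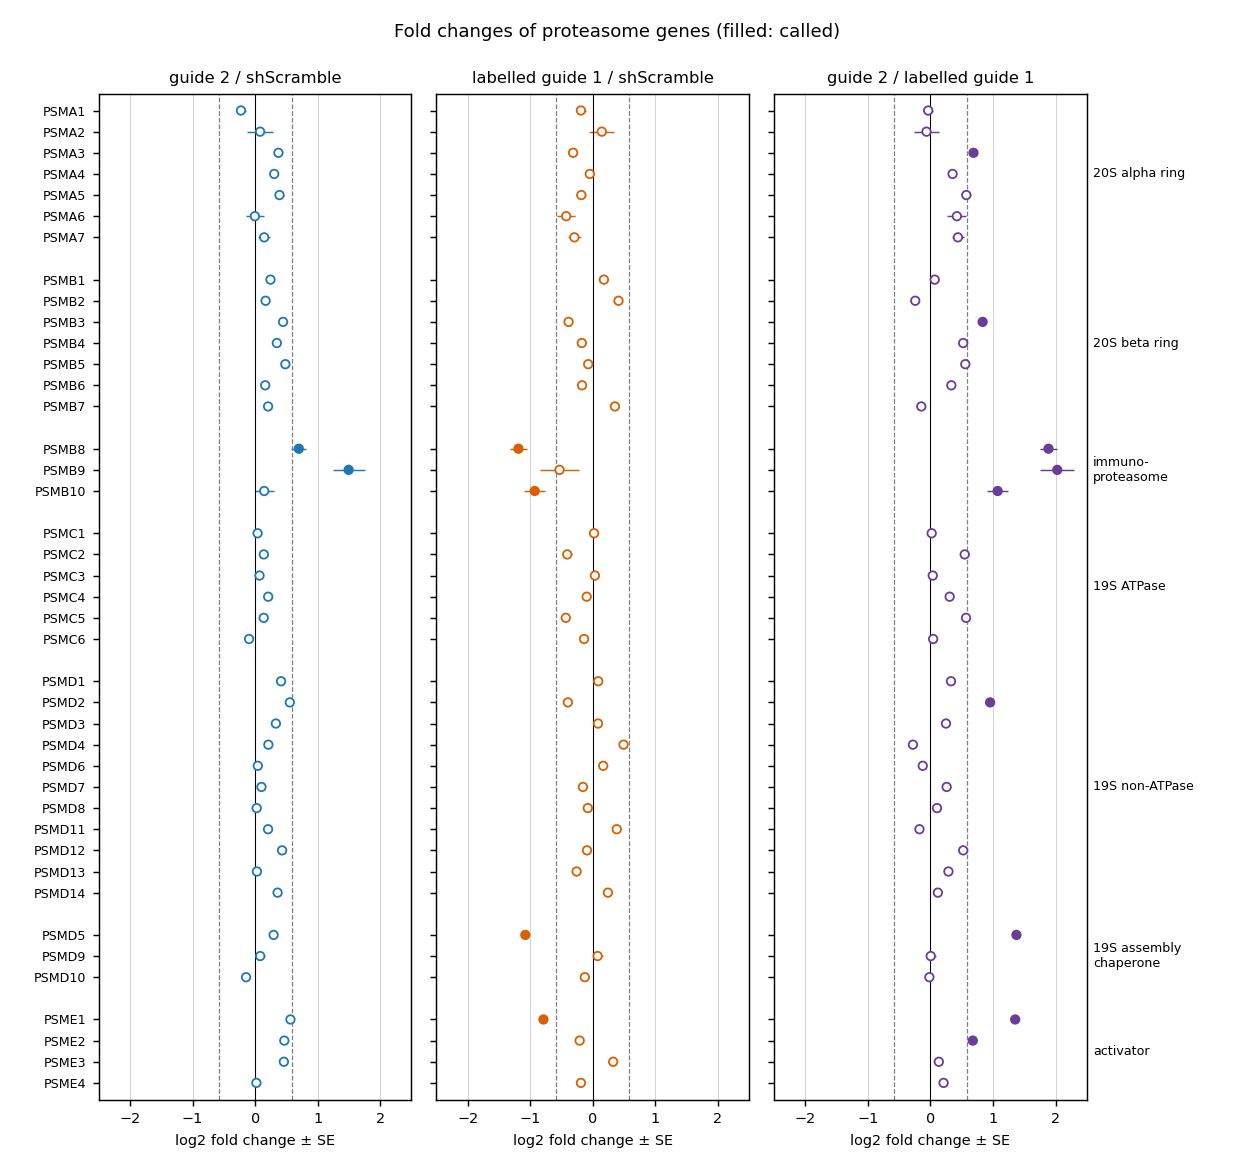
Log2 fold change with its SE (x axis) of each tested proteasome gene for guide 2 against shScramble, labelled guide 1 against shScramble and guide 2 against labelled guide 1, by role, with dashed lines at the fold limit of 1.5 and filled points for called genes. There are 2 filled points in the first panel, 4 in the second and 9 in the last.

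The chaperone PSMD5, which holds 19S base subunits during assembly and is released from the finished particle, was at 11.8, 11.2 and 12.3 RPKM in shScramble, at 15.2, 13.8 and 14.4 RPKM with guide 2 and at 5.94, 5.44 and 5.34 RPKM in the libraries labelled guide 1. The 3 groups were separate. It fell by 1.08 ± 0.06 in the libraries labelled guide 1 (log2, SE, edgeR adjusted p = 3.81e-15) and gave 0.30 ± 0.06 with guide 2 (edgeR adjusted p = 6.27e-05, under the fold limit). The other chaperones were not called. PSMD9 gave 0.08 ± 0.08 and 0.08 ± 0.08 and PSMD10 gave -0.15 ± 0.06 and -0.13 ± 0.06 (log2 fold change with guide 2 and labelled guide 1, SE).

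Genes beside the members on the chromosome did not all share their changes. The 20 nearest tested genes around PSMB8 and PSMB9, in the MHC region, had a median log2 fold change of -0.04 with guide 2 and 0.31 in the libraries labelled guide 1, around PSMD5 of -0.08 and 0.04, and around PSMB10 of -0.15 and 0.19. Around PSMB8 and PSMB9, 5 of the 20 were called higher and 2 lower with guide 2, and 7 and 1 in the libraries labelled guide 1. Of all tested genes, 8.85% were called higher and 20.4% lower with guide 2, and 21.2% and 16.5% in the libraries labelled guide 1. Around PSMD2 the neighbours had 0.26 and -0.34, and around PSMB3 0.13 and -0.40, the same signs as the member.

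Among genes of proteasome assembly and regulation that are no members, 0 of 9 were called with guide 2 by edgeR (5 higher and 1 lower by adjusted p alone), while 3 rose and 1 fell in the libraries labelled guide 1. Of all tested genes, 29.3% were called with guide 2 (by adjusted p alone, 30% higher and 31.7% lower). In the libraries labelled guide 1, 37.7% of all tested genes were called (21.2% higher and 16.5% lower). AKIRIN2, which is needed for nuclear import of the proteasome, had 16.5 CPM in shScramble, 12.4 CPM with guide 2 and 67.2 CPM in the libraries labelled guide 1, a rise of 2.02 ± 0.07 (log2, SE, edgeR adjusted p = 8.48e-20). The alpha-ring chaperones PSMG1 and PSMG3 rose by 1.06 and 0.67 there, and POMP, the maturation factor of the core, fell by 0.70 (log2, edgeR adjusted p = 2.08e-08, 3.45e-12 and 6.56e-07). PSMG3 and POMP did not pass a test against the fold limit itself (glmTreat adjusted p = 0.0557 and 0.0709). Of 6 associated 26S subunits and deubiquitinases, UCHL5 rose by 1.31 and SEM1 fell by 0.63 in the libraries labelled guide 1 (log2, edgeR adjusted p = 3.37e-18 and 0.0141), and none was called with guide 2 (2 higher and 1 lower by adjusted p alone). Without replicate 2 or without replicate 3 of these libraries, SEM1 gave -0.54 and was under the fold limit.

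NFE2L1, the transcription factor that raises proteasome genes when the protease is inhibited, gave -0.38 ± 0.05 with guide 2 and -0.43 ± 0.05 in the libraries labelled guide 1 (log2 fold change, SE, edgeR adjusted p = 4.2e-08 and 2.87e-09), under the fold limit. Of the 9 genes of its list, NFE2L1 included, none was called with guide 2 (3 higher and 4 lower by adjusted p alone), and in the libraries labelled guide 1 MAFF rose by 0.77 and MAFG fell by 0.62 (log2, edgeR adjusted p = 7.99e-05 and 7.72e-13). Of 14 tested ubiquitin and shuttle genes, UBB and UBQLN2 rose with guide 2 by 0.61 and 0.71 and UBA6 rose by 0.64 in the libraries labelled guide 1 (log2, edgeR adjusted p = 1.21e-08, 1.91e-11 and 1.9e-12), and none fell in either. Among all tested genes, 8.85% were called higher and 20.4% lower with guide 2 (30% and 31.7% by adjusted p alone). In the libraries labelled guide 1, 21.2% of all tested genes were called higher and 16.5% lower. Without replicate 2 of the libraries labelled guide 1, MAFF gave 0.57, under the fold limit. Without replicate 1 of shScramble, UBB gave 0.57, also under the fold limit. UBB and UBQLN2 were also under it when libraries were scaled by size alone (0.46 and 0.56), and UBB with a minimum mean of 1 CPM (0.56). With guide 2, MAFF gave -0.57 and was called lower with library size alone (-0.72), with a minimum mean of 1 CPM (-0.61), without replicate 1 of shScramble (-0.61) and without replicate 2 of guide 2 (-0.60), and VCP gave 0.56 and passed the limit without replicate 2 of shScramble (0.59).

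Of 16 tested genes of MHC class I loading and the interferon response, 6 rose and 1 (IRF9) fell with guide 2, and 1 (IFIT1) rose and 8 fell in the libraries labelled guide 1. Of all tested genes, 8.85% were called higher and 20.4% lower with guide 2, and 21.2% and 16.5% in the libraries labelled guide 1. TAP1 rose by 0.68 ± 0.07 with guide 2 and gave -0.01 ± 0.07 in the libraries labelled guide 1, TAPBP rose by 0.63 ± 0.05 and fell by 0.63 ± 0.05, and OAS1 rose by 1.63 ± 0.22 and fell by 2.27 ± 0.33 (log2, SE, edgeR adjusted p = 3.48e-09 and 0.863, 3.58e-11 and 2.52e-11, 2.55e-07 and 6.64e-07). OAS1 was low throughout, at 1.08, 3.36 and 0.221 CPM. TAP2 rose by 0.87 ± 0.08 with guide 2 and gave 0.35 ± 0.08 in the libraries labelled guide 1, under the fold limit (log2, SE, edgeR adjusted p = 6.06e-10 and 0.000599). MX1 gave 0.23 ± 0.165 with guide 2 and fell by 0.95 ± 0.179 in the libraries labelled guide 1 (log2, SE, edgeR adjusted p = 0.237 and 3.64e-05). The rise of TAPBP was under the fold limit when libraries were scaled by size alone (0.48), as it was with a minimum mean of 1 CPM (0.58), and the fall of IRF9 was not called by DESeq2 (DESeq2 adjusted p = 0.0903), with no filter on low counts, or without replicate 1 or 3 of shScramble or replicate 2 or 3 of guide 2. IFIT1 gave 0.72 in the libraries labelled guide 1 (log2, edgeR adjusted p = 0.045) and was not called by DESeq2 (DESeq2 adjusted p = 0.104), with no filter (edgeR adjusted p = 0.0518), with the replicate number as a block (edgeR adjusted p = 0.054), without any 1 of the shScramble libraries, or without replicate 2 or 3 of the libraries labelled guide 1. ISG15 passed the limit with guide 2 without replicate 3 of shScramble (0.59), from 0.54 with all libraries.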

How the data were processed

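The authors trimmed reads with Trim Galore and cutadapt, checked them with FastQC, used STAR for alignment to GRCh38 and featureCounts for the gene-level counts. They deposited 1 file of raw gene counts per library (9 files), neither normalized nor pooled, with the exon bases of each gene. Strand and multi-mapping settings are not given in the sources used here. Symbols for 56558 of 60675 Ensembl identifiers came from a later annotation of the same build.

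Counts were scaled by TMM factors and filtered with filterByExpr (minimum count 10, minimum total 15), leaving 19278 genes, and tested in R 4.3.3 with edgeR 4.0.16 (robust quasi-likelihood F test, all 9 libraries in 1 model, no covariates, Benjamini-Hochberg over all tested genes). The script was tested on simulated data. DESeq2 1.42.0 was an alternative. Exact permutation tests were two-sided. Standard errors are those of log2 fold changes, and SDs are over 3 libraries. At the total counts of these libraries, 3 counts correspond to 0.0971 to 0.137 CPM.

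Members and gene lists were chosen with earlier results of these data known. Named genes were the catalytic subunits, called members (at most 6 per direction), untested members, the 3 highest and 3 lowest by level, and the extremes of each role with guide 2. The 3 largest called genes per direction of each pathway list were also named, except PSMG2 and UBE3C, which were called only between guide 2 and labelled guide 1. Further members of a role (PSMB2, PSMB3, PSMD4, PSMC2, PSMC5, PSME3 among them) and NFE2L1 and TAP1 were named after their values were seen. The summed level of the leukocyte markers is not reported here.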

Additional observations from a re-analysis of the deposited data

Results flagged for a closer look

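For 9 proteasome genes, the effect of guide 2 and that of the libraries labelled guide 1, each against shScramble, differed by edgeR's direct test (adjusted p under 0.05, fold of at least 1.5). These were 9 of the 41 tested, all higher with guide 2, where 19.1% of all tested genes and 22.2% of the highest-expressed tertile were called higher and 47.3% of all tested genes were called in either direction. The log2 difference, guide 2 minus labelled guide 1, was 2.03 for PSMB9, 1.89 for PSMB8 and 1.07 for PSMB10 of the immunoproteasome. It was 1.35 for PSME1 and 0.68 for PSME2 of the PA28 cap. For the 19S genes PSMD5 and PSMD2 it was 1.37 and 0.95, and for the core genes PSMB3 and PSMA3 it was 0.83 and 0.69. In all 9 genes the 3 guide 2 libraries lay above the 3 libraries labelled guide 1. The same held for 35.4% of all tested genes and 54.6% of the highest-expressed tertile. These 9 genes were picked by the test on the same libraries, so their separation adds no support to it. The libraries labelled guide 1 had METTL3 RNA close to that of shScramble (log2 fold change -0.08).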

How the results depend on the processing

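Of 2734 values under an alternative, 2596 kept their side of the threshold or moved little, 47 were weaker, 73 stronger, 18 moved and 0 reversed. A change of sign counted as reversed only where the gene was called in either setting, and otherwise as kept. For example, PSMD8 and PSME4 gave 0.02 and 0.02 with guide 2, and -0.13 and -0.13 with library size alone (edgeR adjusted p = 0.0215 and 0.0231). With library size alone, 1 member was called with guide 2 and the member medians were 0.057 for guide 2 against shScramble and 0.17 for guide 2 against guide 1. With the adjusted p alone, 11910, 13188 and 14386 genes and 27, 27 and 32 members were called for guide 2, labelled guide 1 and their difference. Against the fold of 1.5 itself (glmTreat), 3261 genes and 1 member were called with guide 2. UBB, TAPBP and IRF9 did not pass this test with guide 2 (glmTreat adjusted p = 0.51, 0.293 and 0.338). In the libraries labelled guide 1, SEM1, MAFF, MAFG, UBA6, TAPBP and IFIT1 did not pass it either (glmTreat adjusted p = 0.491, 0.136, 0.282, 0.137, 0.21 and 0.404). When 1 library was left out, the member median of labelled guide 1 ranged from -0.182 to -0.087. On MANE Select lengths the median level in shScramble was 62.0 RPKM in place of 30.9, and PSMB9 was 0.501% of PSMB6 in place of 0.292%. The cause of these changes was not tested, beyond what each alternative's construction fixes.

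Replicate numbers did not pair the samples: same-numbered libraries of different groups had deviations correlated at -0.098 to 0.053. With the replicate number as a block, 2, 4 and 9 members and 5494, 7140 and 9027 genes were called for guide 2, labelled guide 1 and their difference, which changed no call of a member count, and not every library correlated best with its own number. Genes of few counts, such as PSMB9, are limited by depth.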
